A study of Mus musculus with 8 samples.

Results

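The genes described here encode scaffold and membrane proteins of the tight junction: the ZO proteins Tjp1 and Tjp3, the cingulins Cgn and Cgnl1, the MARVEL-domain proteins Ocln, Marveld2 and Marveld3, the MAGI scaffolds Magi1 and Magi3, and the tricellular protein Lsr. They were taken as every probe set whose platform annotation gives exactly 1 of these 10 symbols, which made 25 probe sets for 10 of the 18193 genes with a singly named probe set. Whole mouse embryos were measured with 1-colour oligonucleotide arrays at 2 stages. The later group was the blastocyst (embryonic day 4.5, 120 h after injection of hCG, a hormone that sets the time of ovulation; 4 arrays), and the earlier group the 8-cell embryo (day 2.5, 66 h; 4 arrays). All embryos were wild type, came from matings of B6D2F1 females with B6D2F1 males, and had grown in KSOM culture medium since the 1-cell stage. The series title places AP-2 gamma (Tfap2c) upstream of tight junction formation and of the cavity, and the comparison of the stages asks which transcripts differ across that period.

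Tight junctions seal the space between neighbouring epithelial cells near their apical border. Claudins and occludin cross the membrane, ZO and MAGI proteins are multi-domain scaffolds that bind membrane proteins of the junction from the cytoplasm, and cingulin and paracingulin link this plaque to actin and microtubules. Where 3 cells meet, angulins such as the protein of Lsr recruit tricellulin, the product of Marveld2. In the mouse embryo these proteins assemble stepwise from compaction onward, and the outer cells, the trophectoderm, need the completed seal to hold the fluid of the cavity.

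Signals are given in the arbitrary units of the deposited table, and arrays are numbered by their replicate. A difference is the blastocyst mean minus the 8-cell mean of log2(signal + 16), with its standard error (SE), from limma fitted to 28229 probe sets with Benjamini-Hochberg adjustment, and a probe set was called at an adjusted p under 0.05. A probe set was tested if at least 4 of its 8 signals exceeded the 40th percentile of their own array; that level was 28.3 to 34.3 on blastocyst arrays and 31.9 to 35.7 on 8-cell arrays. A fold is the difference taken off the log2 scale, so it is a ratio of signal + 16 and not of the signals themselves. The arrays share a common mean signal, so a difference is read against the rest of the array. Levels of different probe sets are not comparable. In whole embryos fewer cells of a type and less RNA per cell cannot be told apart. The labels do not state whether replicate arrays stand for separately collected embryos or how many embryos each holds, and the p-values cover only the spread between arrays, part of which may be technical. The number of arrays limits the precision.

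All 11 measured trophectoderm markers were higher in blastocysts, with a summed signal of 96121 to 110096 on blastocyst arrays and 4520 to 5079 on 8-cell arrays, and 9 of 9 tested egg-derived transcripts were lower. Of 7 inner cell mass markers 4 were higher, among them Sox2 (4.01, SE 0.26), and 3 were lower, namely Pou5f1 (-0.90, SE 0.13), Esrrb (-1.34, SE 0.17) and Klf2 (-2.32, SE 0.17). Of 8 primitive endoderm markers 6 were higher and 2, Gata4 and Gata6, lower; they summed to 29904 to 35353 on blastocyst arrays and 10351 to 13491 on 8-cell arrays. The part of these cell types in the results was not tested. Arrays of a stage correlated at 0.978 to 0.985 (blastocyst) and 0.972 to 0.976 (8-cell), while correlations across the stages were 0.767 to 0.790. The 3' minus 5' difference of the Actb control probe sets was 0.82 ± 0.11 in blastocysts and 2.42 ± 0.19 in 8-cell embryos (log2 units, SD, n = 4 each), and that of Gapdh was 1.36 ± 0.10 in blastocysts and 2.32 ± 0.26 in 8-cell embryos. The 3' minus 5' difference, which RNA quality can affect, thus moved with the stage. What it reflects and its part in the results below were not tested. Values of the 8-cell columns carry at most 1 decimal and those of the blastocyst columns mostly more, so any difference in handling cannot be told apart from the stage. Of 7 fibroblast markers 3 were tested and 2 were higher, Thy1 (111 ± 11.5 in blastocysts and 11.9 ± 7.52 in 8-cell embryos) and Pdgfrb (46.7 ± 2.81 in blastocysts and 11.4 ± 4.31 in 8-cell embryos), and the list summed to 244 to 277 on blastocyst arrays and 136 to 250 on 8-cell arrays. Of 5 measured blood cell markers 1 was tested and was higher (Lyz2), and they summed to 83.3 to 145 on blastocyst arrays and 40.3 to 82.3 on 8-cell arrays. Of the 9 measured cumulus and granulosa cell markers 5 were tested, 0 higher and 2 lower. They summed to 3050 to 3954 on blastocyst arrays and 8300 to 9764 on 8-cell arrays, most of it Nr5a2 (3326 ± 460 in blastocysts and 8490 ± 671 in 8-cell embryos), a nuclear receptor that the embryo itself also uses. No marker was listed at 0 on any array, and the part of these cells in the results was not tested.

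Of the 10 genes, 7 were higher in blastocysts on their brightest probe set, the one with the highest mean log2 signal over the 8 arrays, and 3 (Tjp1, Marveld3 and Magi1) did not pass. Paracingulin, Lsr, ZO-3 and MAGI-3 had the largest differences, cingulin an intermediate one, and occludin and tricellulin differed by 2-fold to 3-fold. The median difference was 1.97 over these 10 probe sets and 0.02 over the brightest probe sets of 13276 named genes, of which 36.9% were called higher and 33.6% lower. All 7 had every blastocyst array above every 8-cell array, as had 35.3% of the named genes, and none of the 10 had the reverse, as had 31.5%. Counted by probe set, 18 of the 25 were tested; 13 were called higher, 0 lower and 5 did not pass, where 33.6% of all tested probe sets were called higher and 32.8% lower. Of all calls 50.6% were higher on the deposited scale, against 66.9% with scaling to the hybridisation controls. At an unadjusted p under 0.05, 14 were higher and 0 lower. The same 13 were the ones with every blastocyst array above every 8-cell array, which 31.4% of all tested probe sets showed (29.8% showed the reverse), and 12 of them differed by at least 2-fold, against 22.7% of all. Probe sets that were dim in 8-cell embryos could pass the filter through the blastocyst arrays alone, so these counts describe the genes and do not support a shift of the group. On quantile-scaled arrays 1 probe set, of Magi1, was called lower.

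**Figure D1:**
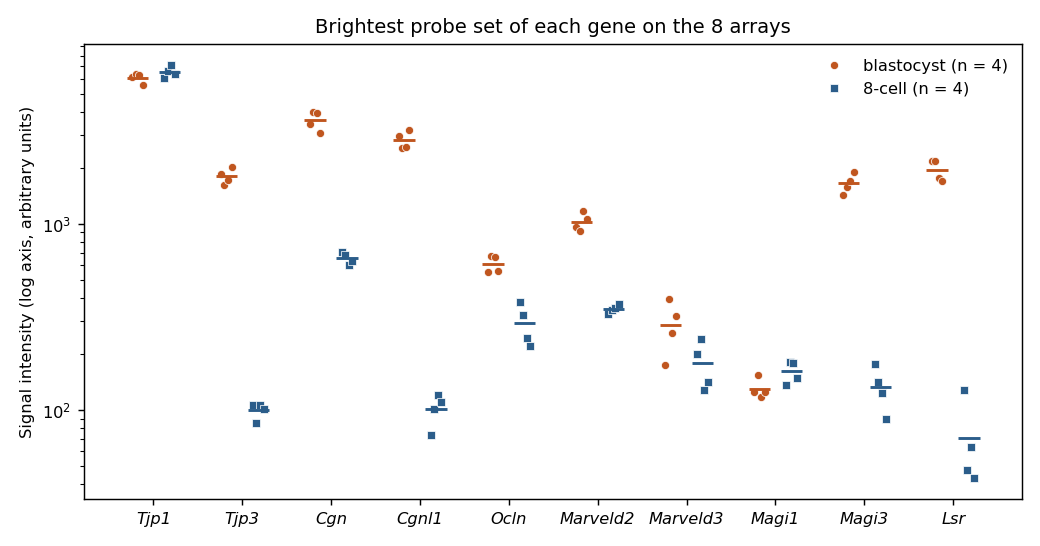
Signal (log axis, arbitrary units) of the brightest probe set of each gene on every array, with blastocysts as circles, 8-cell embryos as squares and the stage mean as a line. The stages separate completely for 7 genes and overlap for Tjp1, Marveld3 and Magi1; heights of different genes are not comparable.

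Promoter sequences show what lies next to the start sites of these genes. RefSeq (GRCm38.p6) gave 13 windows of 300 bases, from 250 before to 50 after a transcription start, for 9 of the genes. Marveld3 is without one. The windows were searched on both strands for 2 motifs: GCCNNNGGC, a core form of the site that AP-2 factors bind, and AACCNGTT, a core form of the grainyhead-like site. They share no letters at any match. The AP-2 form occurred in 5 of the 13 windows, of 4 genes, and in 16.6% of all 32851 windows of this length. Its fixed letters are all G or C. All of the 13 windows except one of Tjp3 (45.3% GC) were above the median GC of all windows (52.7%), at up to 73.3%. The Marveld2 windows overlap and hold the same match. No enrichment was tested. The grainyhead-like form occurred in 1 window, that of Cgn, and in 2.09% of all. Neither was found in the windows of Tjp3, Cgnl1, Lsr and Magi1, which says only that these letters are absent there. Each stretch below is printed 5′ to 3′ on the strand of the gene with the match in capitals; these genes are shown because a window of theirs holds a match, whether or not their signal differed between the stages. They lie at chr3:104220542-104220570 for Magi3 (minus strand, beginning 154 bases before the start), chr13:100552528-100552556 for Ocln (minus strand, 48 before a start), chr13:100616944-100616972 for Marveld2 (minus strand, 18 before one start and 9 after another), chr7:65371195-65371220 for Tjp1 (minus strand, 34 after the start) and chr3:94786494-94786521 for Cgn (minus strand, 29 before the start, the grainyhead-like form, matched in its reverse complement).
Magi3: cagcatgcccGCCGAGGGCcgcccccagc
Ocln: ccagcgcacaGCCCCGGGCgggttcggcc
Marveld2: cagtttcggtGCCCGCGGCagagcgtgct
Tjp1: ggctctgcccGCCGACGGCacgtctc
Cgn: cctggggagtAACAGGTTggtgggcggg

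The 250 bases before the start of Magi3 (chr3:104220407-104220656, minus strand) are shown whole because it had the largest difference among the genes with an AP-2 match. Those of Lsr (chr7:30973470-30973719, minus strand) stand beside it as a gene with a difference of 4.59 and no match. Capitals again mark the match.
Magi3: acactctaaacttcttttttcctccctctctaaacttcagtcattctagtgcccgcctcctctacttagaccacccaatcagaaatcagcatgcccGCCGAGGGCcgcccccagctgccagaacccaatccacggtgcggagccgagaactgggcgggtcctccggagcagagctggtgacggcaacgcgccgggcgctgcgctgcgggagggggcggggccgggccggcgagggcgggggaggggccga
Lsr: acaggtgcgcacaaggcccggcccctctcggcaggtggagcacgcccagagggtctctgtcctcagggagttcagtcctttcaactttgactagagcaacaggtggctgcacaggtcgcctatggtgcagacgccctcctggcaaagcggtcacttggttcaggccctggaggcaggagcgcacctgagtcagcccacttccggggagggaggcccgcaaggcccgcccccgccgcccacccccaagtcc

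ZO-1 and ZO-3 are the scaffolds that bind claudins and occludin and tie them to actin. Tjp1, encoding ZO-1, gave 6117, 6399, 6270 and 5535 on the blastocyst arrays and 6053, 6632, 7155 and 6362 on the 8-cell arrays. It was bright at both stages, and the groups overlapped. The difference was -0.11 (SE 0.12, 95% interval -0.38 to 0.17, limma adjusted p = 0.468), and 54.3% of named genes had a higher one. On quantile-scaled arrays it was 0.03 and with scaling to the hybridisation controls 0.25, so even its sign is unsettled. Tjp3, encoding ZO-3, a member of the family found mainly in epithelia, gave 1852, 1623, 1712 and 2019 on the blastocyst arrays and 107, 84.8, 106 and 101 on the 8-cell arrays. No value of one stage came near the other. Its rise was 15.7-fold (difference 3.97, SE 0.13, limma adjusted p = 2.45e-08), and only 1.91% of named genes had a higher difference.

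The difference within each array between the log2 signals of the pair shows whether the compared probe sets changed by the same amount. It does not rank their levels. Probe sets of the same gene can also change by unequal amounts, as those of Cgnl1 and Magi3 below did, so a shift need not hold for the genes. The pairs were chosen with earlier results of these data known. For Tjp3 minus Tjp1 it averaged -1.75 ± 0.23 in blastocysts and -5.83 ± 0.18 in 8-cell embryos (SD, n = 4 each). Tjp3 had thus moved by 4.08 log2 units more than Tjp1 (exact 97.1% interval 3.66 to 4.60). The exact two-sided permutation test gave p = 0.0286, the smallest that 4 against 4 arrays allow, and p = 0.0429 after adjustment over the 6 pairs compared. Both genes had 1 probe set each, so averaging the probe sets of a gene left the shift of 4.08 unchanged by construction. In that setting the adjusted p of the exact permutation test was 0.0571, which moved only through the other pairs.

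Cingulin and paracingulin are coiled-coil proteins of the cytoplasmic plaque that bind ZO-1. For Cgn the brighter probe set (1435155_at) gave 3446, 4004, 3921 and 3073 on the blastocyst arrays and 707, 680, 604 and 632 on the 8-cell arrays. The groups were far apart, and the 8-cell level was itself well above the filter. It rose 5.38-fold (2.43, SE 0.14, limma adjusted p = 3.26e-07). The other Cgn probe set (1430329_at) was dim, at 71.2 to 96.4 in blastocysts and 20.2 to 46.9 in 8-cell embryos, and rose by 0.98 (SE 0.18, limma adjusted p = 0.000962).

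Cgnl1 had 5 probe sets, which differed widely in brightness. The brightest (1452309_at) gave 2957, 2549, 2594 and 3202 on the blastocyst arrays and 73.6, 102, 121 and 111 on the 8-cell arrays. The stages were far apart. The rise was 24.3-fold (4.60, SE 0.17, limma adjusted p = 3.08e-08), higher than for all but 1.11% of named genes. A second (1421158_at) gave 277, 276, 289 and 313 on the blastocyst arrays and 4.2, 63.3, 75.8 and 36.6 on the 8-cell arrays and rose by 2.53 (SE 0.41, limma adjusted p = 0.000350). The low value of 8-cell replicate 1 widens its interval to 1.62 to 3.44. The dimmer 1448052_at rose by 1.11 (SE 0.31, limma adjusted p = 0.0102), with 70.9 to 103 in blastocysts and 13.6 to 62.6 in 8-cell embryos. The remaining 2 did not pass the filter: 1443861_at stood at 16.9 to 59.2 in blastocysts and 3.4 to 24.7 in 8-cell embryos, and 1421159_at, from the same accession as 1421158_at, at 1.1 to 3.28 in blastocysts and 1.7 to 4.7 in 8-cell embryos.

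Between the brightest probe sets, the within-array difference Cgnl1 minus Cgn was -0.35 ± 0.33 in blastocysts and -2.53 ± 0.36 in 8-cell embryos (SD, n = 4 each). On these probe sets paracingulin had moved by 2.18 more than cingulin (exact 97.1% interval 1.53 to 3.07, exact permutation p = 0.0286, adjusted p = 0.0429 over the pairs). With the mean of all probe sets of each gene the difference was 0.14 (exact permutation test, adjusted p = 0.657). The dim probe sets of both genes, also those of Cgnl1 that did not pass the filter, enter these means.

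**Figure D2:**
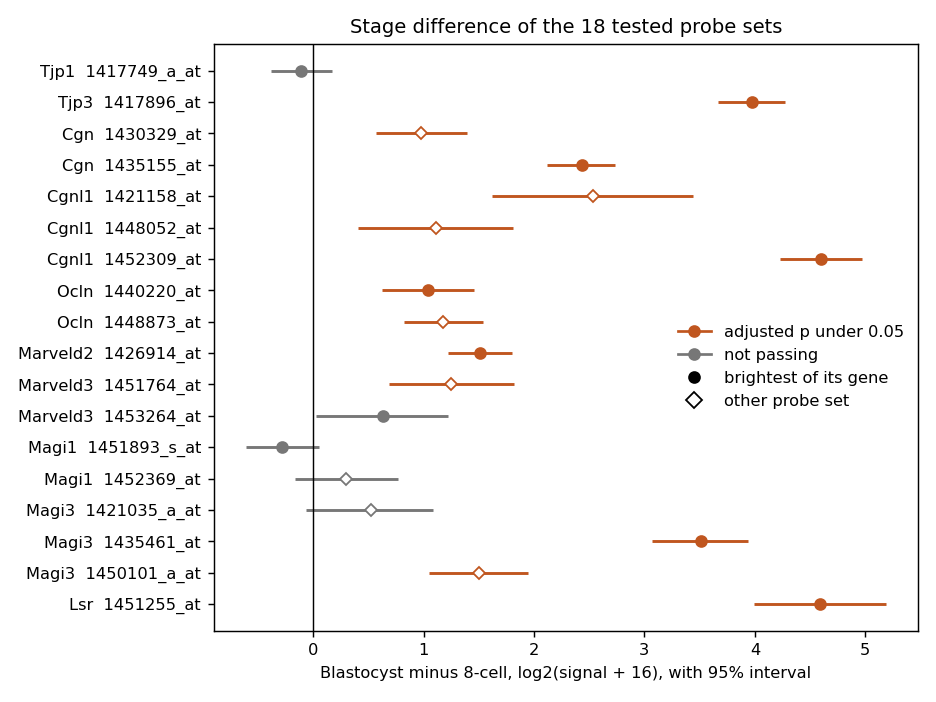
Stage difference (blastocyst minus 8-cell, log2 of signal + 16) of the 18 tested probe sets, with 95% intervals from limma; colour marks an adjusted p under 0.05, filled circles the brightest probe set of a gene and open diamonds the others. The brightest probe sets of Cgnl1 and Lsr lie near 4.60, and those of Tjp1 and Magi1 have intervals that span 0.

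Occludin, tricellulin and MarvelD3 form the family of tight junction proteins with a 4-pass MARVEL domain. Ocln was measured by a pair of probe sets of similar behaviour. One (1440220_at) gave 549, 669, 662 and 555 on the blastocyst arrays and 383, 324, 245 and 221 on the 8-cell arrays. The other (1448873_at) gave 577, 635, 710 and 486 on the blastocyst arrays and 312, 242, 241 and 230 on the 8-cell arrays. On each the lowest blastocyst array was above the highest 8-cell array. The differences were 1.04 (SE 0.19, limma adjusted p = 0.000713) and 1.18 (SE 0.16, limma adjusted p = 0.000115), a rise of 2.06-fold and 2.26-fold.

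Marveld2, encoding tricellulin, which lines the corners where 3 cells meet, gave 959, 918, 1167 and 1060 on the blastocyst arrays and 330, 344, 353 and 370 on the 8-cell arrays. The 8-cell arrays lay close together and far below the blastocyst arrays. It rose 2.84-fold (1.51, SE 0.13, limma adjusted p = 4.46e-06). Relative to Ocln within each array it had moved by 0.47 (exact 97.1% interval -0.26 to 1.12, exact permutation p = 0.0857, adjusted p = 0.103 over the pairs), so an unequal rise of these genes was not shown.

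Marveld3, another member, which in cultured epithelia also restrains a stress kinase pathway, was less clear. Its brightest probe set (1453264_at) gave 175, 393, 261 and 320 on the blastocyst arrays and 201, 240, 129 and 142 on the 8-cell arrays. Blastocyst replicate 1 fell among the 8-cell arrays. The difference was 0.63 (SE 0.26, 95% interval 0.03 to 1.22, limma adjusted p = 0.0597). Without blastocyst replicate 1 it was 0.83 (limma adjusted p = 0.0144) and without 8-cell replicate 2 it was 0.77 (limma adjusted p = 0.0326), and it passed in 7 of 19 alternative settings. The average of the 3 Marveld3 probe sets differed by 0.62 and passed (limma adjusted p = 0.0195). A dimmer probe set (1451764_at), at 44.9 to 78.8 in blastocysts and 6.3 to 28.3 in 8-cell embryos, rose by 1.25 (SE 0.25, limma adjusted p = 0.00154); its 8-cell values were all under the 40th percentile, so it passed the filter through the blastocyst arrays. The last (1444809_at) was not tested, at 6.47 to 35.6 in blastocysts and 6.5 to 37.2 in 8-cell embryos. Relative to Ocln, Marveld3 had moved by -0.41 (exact 97.1% interval -1.15 to 0.13, exact permutation p = 0.171, adjusted p = 0.171).

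MAGI-1 and MAGI-3 are multi-PDZ scaffolds with WW domains that bind junction proteins. Magi1 had 5 probe sets, all dim except the brightest. The brightest (1451893_s_at) gave 125, 154, 118 and 125 on the blastocyst arrays and 136, 182, 180 and 149 on the 8-cell arrays. The groups overlapped through blastocyst replicate 2. The difference was -0.28 (SE 0.15, 95% interval -0.61 to 0.05, limma adjusted p = 0.119). It was -0.43 on quantile-scaled arrays (limma adjusted p = 0.0268) and 0.07 with scaling to the hybridisation controls (limma adjusted p = 0.808). Another (1452369_at) gave 30.6 to 49.8 in blastocysts and 22.2 to 53.8 in 8-cell embryos (0.30, SE 0.21, limma adjusted p = 0.221). Without 8-cell replicate 4, the highest of its group, that difference was 0.49 (limma adjusted p = 0.0281). The other 3, between 7.79 and 42.7 in blastocysts and between 3.4 and 51.0 in 8-cell embryos, were not tested.

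Magi3 had 3 tested probe sets of unequal size. The brightest (1435461_at) gave 1424, 1579, 1702 and 1887 on the blastocyst arrays and 177, 142, 124 and 89.6 on the 8-cell arrays. All blastocyst values exceeded all 8-cell values by a wide margin. It rose 11.4-fold (3.51, SE 0.19, limma adjusted p = 2.89e-07), and 2.78% of named genes had a higher difference. A second (1450101_a_at) was at 66.8 ± 5.35 in blastocysts and 14.1 ± 8.41 in 8-cell embryos (SD, n = 4 each) and rose 2.83-fold (SE of the log2 difference 0.20, 95% interval 1.05 to 1.95, limma adjusted p = 9.63e-05), with every 8-cell array under the 40th percentile. The last (1421035_a_at), from the same accession as 1450101_a_at, was at 30.8 to 61.2 in blastocysts and 10.6 to 42.4 in 8-cell embryos and differed by 0.52 (SE 0.26, limma adjusted p = 0.101).

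The brightest probe sets of the 2 MAGI genes differed from each other in their change. Magi3 minus Magi1 was 3.51 ± 0.25 in blastocysts and -0.28 ± 0.43 in 8-cell embryos (SD, n = 4 each), a shift of 3.79 (exact 97.1% interval 2.89 to 4.40, exact permutation p = 0.0286, adjusted p = 0.0429 over the pairs). With the mean of each gene's probe sets the shift was 1.97 and no longer passed (exact permutation test, adjusted p = 0.0571).

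**Figure D3:**
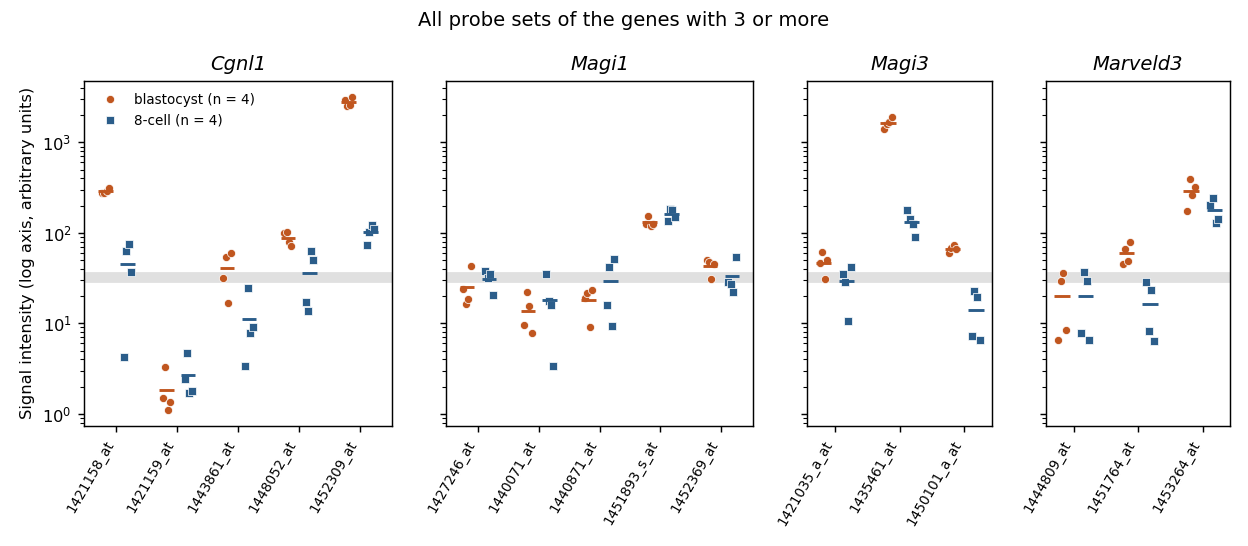
Signal (log axis, arbitrary units) on every array for all probe sets of Cgnl1, Magi1, Magi3 and Marveld3, with blastocysts as circles, 8-cell embryos as squares and the stage mean as a line; the grey band spans the 40th percentiles of the 8 arrays (28.3 to 35.7). The stages lie far apart on the brightest probe sets of Cgnl1 and Magi3, while the Magi1 probe sets overlap and mostly stay near or under the band.

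Lsr encodes angulin-1, also known as the lipolysis-stimulated lipoprotein receptor, which marks tricellular corners and draws tricellulin to them. Its brighter probe set (1451255_at) gave 2181, 2178, 1764 and 1689 on the blastocyst arrays and 128, 47.7, 63.8 and 43.1 on the 8-cell arrays. Apart from replicate 1 the 8-cell values were near the level of the filter. The rise was 24.1-fold (4.59, SE 0.27, limma adjusted p = 3.94e-07), and its size depends on the added 16: it was 4.9 with 1 added and 3.94 with 64 added. A second probe set (1447690_at) stayed at 5.78 to 26.2 in blastocysts and 3.7 to 30.3 in 8-cell embryos and was not tested. On the brightest probe sets Marveld2 differed less than Lsr: the within-array difference Lsr minus Marveld2 was 0.91 ± 0.33 in blastocysts and -2.17 ± 0.64 in 8-cell embryos (SD, n = 4 each), a shift of 3.08 (exact 97.1% interval 1.85 to 3.94, exact permutation p = 0.0286, adjusted p = 0.0429 over the pairs). With the mean of each gene's probe sets it was 0.76 (exact permutation test, adjusted p = 0.0571).

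**Figure D4:**
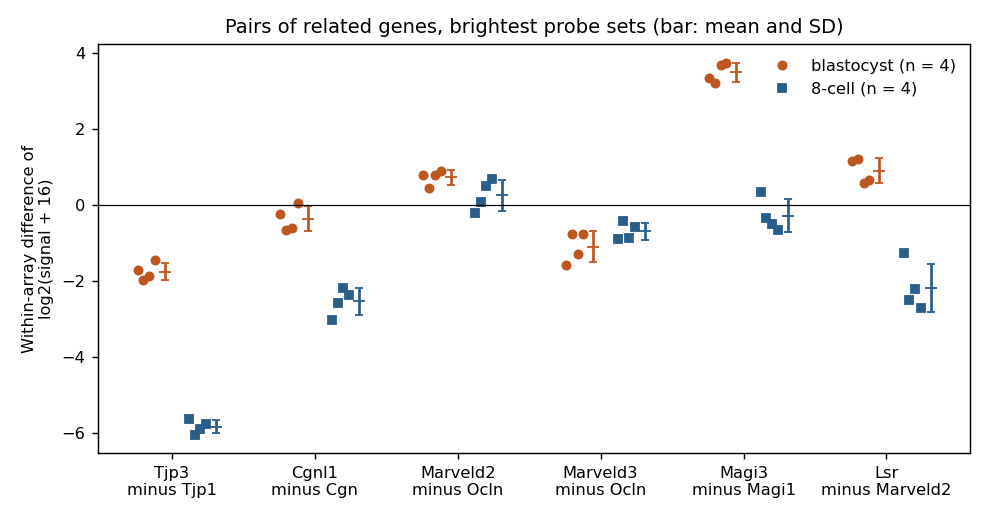
Within-array difference of log2(signal + 16) between the brightest probe sets of 6 pairs of related genes, for blastocysts (circles) and 8-cell embryos (squares), with mean and SD (n = 4 each). The stages separate for 4 pairs, with shifts of 2.18 to 4.08, and overlap for Marveld2 minus Ocln and Marveld3 minus Ocln.

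Other tight junction genes were split. Among the partners of the plaque and of tricellular contacts, 22 tested genes gave 9 higher, 6 lower and 7 not passing, with a median of 0.21 (median of all named genes 0.02). Of all named genes 36.9% were called higher and 33.6% lower. The same shares stand beside the counts of the claudin, JAM and transcription factor lists, which describe the listed genes only. Values of each listed gene, and of each cell type marker above, are those of its brightest probe set alone. Other probe sets of a gene may differ. The highest were Ildr1, encoding angulin-2 (441 ± 47.3 in blastocysts and 7.45 ± 8.44 in 8-cell embryos, 4.34, SE 0.22), and Patj, a polarity scaffold of the tight junction (1297 ± 145 in blastocysts and 51.7 ± 12.2 in 8-cell embryos, 4.29, SE 0.17). Ildr1 was under the 40th percentile on every 8-cell array. The lowest was Marveld1 (-2.18, SE 0.18), a MARVEL-domain gene outside the tight junction family but counted in this list. Next was Mpdz, encoding the multi-PDZ protein MUPP1 (-1.75, SE 0.21). All 4 had limma adjusted p of 5.25e-05 or less.

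Of 11 tested claudin genes, the strand-forming proteins that ZO scaffolds bind, 4 were higher, 4 lower and 3 did not pass (median 0.00). Cldn3 (6.02, SE 0.27) and Cldn4 (2.00, SE 0.22) led the higher ones, and Cldn9 (-3.56, SE 0.18) and Cldn22 (-1.49, SE 0.20) the lower ones. Cldn3, at 26.7 ± 16.8 in 8-cell embryos, exceeded the 40th percentile on 1 of the 4 8-cell arrays, and another higher claudin on 0. Both could pass the filter through the blastocyst arrays alone. Of 6 genes of the JAM family and its relatives, the immunoglobulin-like adhesion proteins of the junction, 3 were higher, 1 lower and 2 did not pass (median 0.72). Jam2 (2.19, SE 0.25) and Igsf5 (1.62, SE 0.43) were the highest, and the lower gene was Esam (-1.03, SE 0.19).

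Among 22 epithelial transcription factor genes, a list that mixes activators and repressors, 12 were higher, 5 lower and 5 did not pass (median 0.52). The trophoblast factor Elf5 (8.37, SE 0.16) and Klf6 (5.77, SE 0.31) had the largest rises, from 8-cell signals under the 40th percentile on every array. Tead4 (-2.03, SE 0.14), a Hippo pathway factor of trophectoderm, and Ovol2 (-1.84, SE 0.13), an epithelial repressor, had the largest falls. Tfap2c itself was at 2988 ± 306 in blastocysts and 7316 ± 1079 in 8-cell embryos (-1.28, SE 0.15, limma adjusted p = 4.25e-05). Tfap2a, another AP-2 gene, went the other way, at 3691 ± 305 in blastocysts and 136 ± 55.9 in 8-cell embryos (4.67, SE 0.23, limma adjusted p = 1.37e-07). Of the grainyhead-like genes, Grhl1 (3.74, SE 0.21) and Grhl3 (0.47, SE 0.18) were higher and Grhl2 (0.16, SE 0.17) did not pass. Of the 4 genes with an AP-2 form in a promoter window, Ocln, Marveld2 and Magi3 were higher in blastocysts and Tjp1 did not pass, while Tjp3, Cgn, Cgnl1 and Lsr, without it, were higher as well and Magi1, also without it, did not pass.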

How the data were processed

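The authors deposited signal intensity values on a linear scale for 45101 probe sets on 8 arrays. Per the labels' protocols, RNA was isolated with a small-sample kit, amplified with a small-sample labelling assay and biotin-labelled. The labels do not name the signal software. On every array the mean signal, without the lowest and highest 2%, was 500. No detection calls were used.

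Values became log2(signal + 16). Array medians spanned 0.19 log2 units, so the deposited scale was kept. The 64 control probe sets were left out of the tests. The platform annotation gave 1 symbol to 34945 probe sets and several to 932, and 9160 are unnamed here. The 28229 probe sets above the 40th percentile on at least 4 arrays were fitted with limma 3.58.1 in R 4.3.3, with no covariates. Related genes were compared by exact two-sided permutation over the 70 assignments of the arrays (absolute difference of means), and p adjusted over the 6 pairs. On simulated data of 28229 probe sets, 10 runs changed 200 probe sets each. Differences of 0.5, 1 and 2 log2 units were recovered in 1.79%, 41.9% and 86.2% of cases, and 4.09% of the calls made were false. Far more probe sets were called in the data, which loosens the cut-off of the adjustment, so these shares do not carry over to it. The genes, pairs and lists were chosen with earlier results of these data known. Named were all probe sets of the 10 genes, Tfap2c, and the 2 highest and 2 lowest called genes of each list. Tfap2a and the grainyhead-like genes were named as well, since the motifs of their families were searched. Alternatives covered scaling, the added constant, the filter, probe set choice, variance models, a replicate block and leaving out each array. Same-numbered arrays of the stages did not deviate together (correlations of -0.03 to -0.01), so the numbers were not taken as pairs. Plots used Python 3.11.15 and matplotlib 3.10.9.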

Additional observations from a re-analysis of the deposited data

How the results depend on the processing

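Of 21 alternatives, each probe set was tested in 17 to 19. There the probe sets kept their direction except those of Tjp1 and Magi1 (1451893_s_at), and no called one lost its call where it was tested. The filter at the 60th percentile left 12 probe sets, 10 of them higher, and did not test 4 called ones (Cgn 1430329_at, Cgnl1 1448052_at, Marveld3 1451764_at and Magi3 1450101_a_at). Of the genes' probe sets, 13 were higher on the deposited scale; leaving out 1 array gave 13 to 14, and 1 probe set a gene or averaged probe sets, which test 10 genes, gave 7 and 8. The probe sets called lower were 0, and 1 with quantile scaling (Magi1); leaving out 1 array gave 0. Tjp1 turned to 0.03 with quantile scaling and 0.25 with hybridisation control scaling, and Magi1 (1451893_s_at) to 0.07 with the latter setting, under which the median difference of all tested probe sets was 0.34, against -0.01. Over all probe sets 9483 were higher and 9253 lower; the lower count was 5468 with hybridisation control scaling (11031 higher, 66.9% of the calls against 50.6%), 1 probe set a gene gave 4978 higher and 4541 lower, averaged probe sets 4644 and 4237, both with fewer features tested, and leaving out 1 array 8917 to 9300 higher and 8643 to 9091 lower. In the other gene lists 28 were higher and 16 lower, with 26 to 30 and 14 to 17 on leaving out 1 array, and 9 lower without probe sets ending in _x_at, _s_at or _a_at, where fewer genes were left. Among the pairs, averaged probe sets gave 0.14 for Cgnl1 minus Cgn, 0.76 for Lsr minus Marveld2, 1.97 for Magi3 minus Magi1 and 4.08 for Tjp3 minus Tjp1 (exact permutation test, adjusted p = 0.657, 0.0571, 0.0571 and 0.0571). The last 3 stayed at the smallest unadjusted p and lost their place through the adjustment. Tjp3 and Tjp1 have 1 probe set each, so their 4.08 could not change in this setting. With the replicate block the values 2.18, 3.08, 3.79 and 4.08 were the same, and the adjusted p of 0.125 is the smallest that 4 pairs allow, so this setting could not pass. The fit with the replicate block gave 14 higher probe sets, with Magi3 (1421035_a_at, 0.52, limma adjusted p = 0.0405) added; no blastocyst array correlated best with the 8-cell array of its number. Leaving out 1 array moved the pairs over 3.98 to 4.15 for Tjp3 minus Tjp1, 2.01 to 2.29 for Cgnl1 minus Cgn, 3.66 to 3.99 for Magi3 minus Magi1, 2.90 to 3.39 for Lsr minus Marveld2, 0.31 to 0.61 for Marveld2 minus Ocln and -0.53 to -0.25 for Marveld3 minus Ocln. Signals near the 40th percentile limit the size of the differences of Lsr and of the dim probe sets.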
